A study of Bos taurus with 3 samples.

Results

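The miR-181 family was followed through small RNA libraries of large dense-core vesicles from bovine chromaffin cells. Its members were taken by name from the deposited count table, which lists bta-miR-181a, bta-miR-181b, bta-miR-181c and bta-miR-181d (bta for Bos taurus, left off from here on), 4 of 793 mature miRNAs. These names cover 6 of the 919 table rows, because miR-181a and miR-181b each have 2 hairpins with a row of their own. Chromaffin cells sit in the adrenal medulla and release catecholamines into the blood. Their large dense-core vesicles store these hormones together with peptides until release. The vesicles came from cows of a local slaughter, with no treatment, strain, age or genotype given. The libraries were 1 labelled biological replicate and 2 labelled technical replicates, and they held 6708654 counts in the biological replicate, 5546771 in technical replicate 1 and 6251664 in technical replicate 2, with 1 row kept per mature miRNA. The labels say neither which step the technical replicates repeat nor how many animals were pooled, so the technical pair was averaged and counted as 1 preparation (n = 2 preparations in each mean ± SD). No library of whole chromaffin cells was analysed here, so the levels describe vesicle preparations and not enrichment in vesicles. In bulk preparations fewer vesicles of a kind and less RNA per vesicle cannot be told apart.

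A mature miRNA guides the silencing complex to messenger RNAs mainly through its seed, a short stretch near the 5′ end, and the miR-181 members are known to share that seed and so to overlap in predicted targets. In mammals the family is known to be encoded as 3 pairs of neighbouring hairpins, each pair thought to arise from a common transcript. miR-181a is best known for setting the sensitivity of T-cell receptor signalling in developing mouse T cells, miR-181b for dampening NF-kappaB signalling in endothelium, and miR-181c for reaching the mitochondria of rat heart cells. The family is also abundant in mammalian brain.

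All 6 hairpins of the table matched a cattle miRNA gene in the RefSeq annotation of the assembly ARS-UCD2.0, which was used only for names and neighbours because the submitters' processing notes name another build, UMD3.1. In that annotation the nearest miRNA gene to MIR181A-1 was MIR181B-1, and neither lay within another gene. MIR181A-2 had MIR181B-2 as its nearest, both within the span of the nuclear receptor gene NR6A1 and of the long non-coding RNA LOC100848407. MIR181C and MIR181D were nearest to each other, both within the span of NANOS3, and the next miRNA genes after them were MIR23A, MIR27A and MIR24-2.

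miR-181d was the most abundant member, followed by miR-181a, miR-181c and miR-181b, and this order was the same in all 3 libraries when each member was counted by 1 hairpin row. Levels are given in CPM, counts scaled to a common total of mature miRNA counts per library, with exact Poisson 95% intervals that cover counting error only. miR-181d (MIMAT0009243) had 783 CPM in the biological replicate (762 to 804), and 584 (564 to 604) and 599 CPM (580 to 619) in technical replicates 1 and 2. The biological replicate thus lay above both technical libraries, which were close to each other. miR-181a (MIMAT0003543) had 352 CPM in the biological replicate (338 to 367), against 470 (452 to 489) and 386 CPM (371 to 402) in technical replicates 1 and 2. Here the biological replicate was the lowest, and the technical pair differed beyond counting error.

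miR-181c (MIMAT0003817) had 220 CPM in the biological replicate (209 to 231), against 226 (214 to 239) and 169 CPM (159 to 179) in technical replicates 1 and 2. Its biological value lay inside the technical range, next to technical replicate 1. miR-181b (MIMAT0003793) had 49.9 CPM in the biological replicate (44.7 to 55.6), against 47.8 (42.2 to 53.9) and 44.3 CPM (39.2 to 49.8) in technical replicates 1 and 2, and all of these intervals overlapped. Over preparations the means were 687 ± 135 CPM for miR-181d, 390 ± 53.5 for miR-181a, 209 ± 15.9 for miR-181c and 48.0 ± 2.75 for miR-181b (SD, n = 2). These SDs leave out the spread within the technical pair, which for miR-181c was wide (226 and 169 CPM). The highest library of each member stayed below the lowest library of the member above it. Small RNA library preparation is known to recover different sequences unequally, and the levels count whole mature miRNAs without correction for that, so the order is one of counts.

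**Figure D1:**
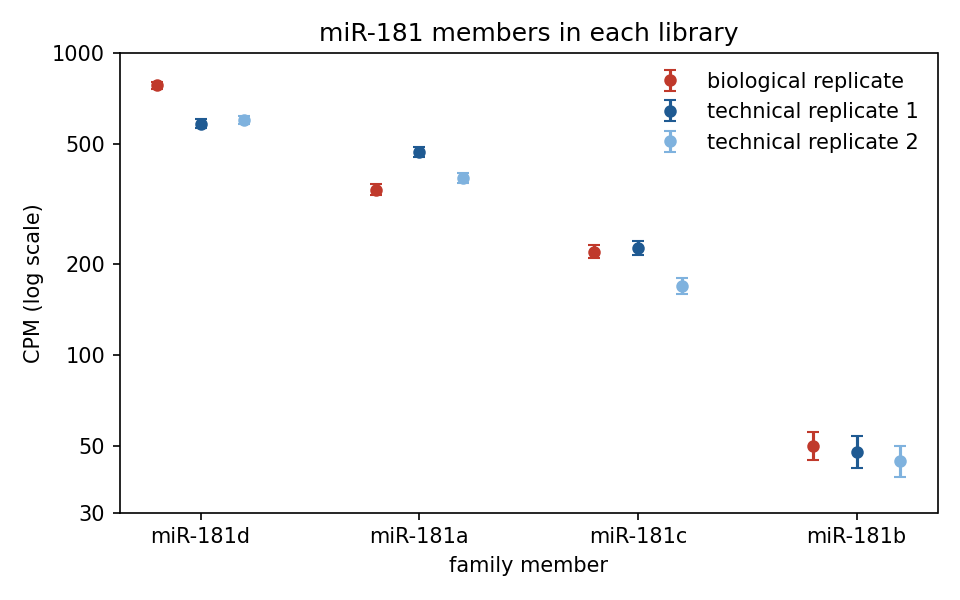
CPM (log axis) of each miR-181 member in the biological replicate and technical replicates 1 and 2, with exact Poisson 95% intervals as bars. miR-181d is highest and miR-181b lowest in every library, and the biological replicate is above both technical libraries for miR-181d (783 CPM) and below both for miR-181a (352 CPM).

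Among all mature miRNAs the family was of middling abundance. miR-181d ranked 74 in the biological replicate, and 89 and 88 in technical replicates 1 and 2. miR-181a ranked 110 in the biological replicate, and 98 and 111 in the technical pair. miR-181c ranked 125 in the biological replicate and 127 and 141 in the technical pair, while miR-181b ranked 191 there and 202 and 208 in the technical pair. The 4 members together held 0.140% of the miRNA counts in the biological replicate, and 0.133% and 0.120% in technical replicates 1 and 2. The family sum was 1405 CPM in the biological replicate and 1328 and 1198 CPM in the technical pair, and averaged 1334 ± 100.2 CPM (SD, n = 2).

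The rows of a member with 2 hairpins showed how far its reads could be placed. The rows mir-181a-1 and mir-181a-2 held 2365 and 2364 counts in the biological replicate, 2607 and 2608 in technical replicate 1, and 2412 and 2413 in technical replicate 2. They differed by 1 count in each library, so the table does not separate the 2 hairpins of miR-181a. The rows mir-181b-1 and mir-181b-2 held 307 and 335 counts in the biological replicate, 250 and 265 in technical replicate 1, and 271 and 277 in technical replicate 2. mir-181b-2 was higher in each library, by 28 counts (8.36% of the larger row) in the biological replicate, and by 15 (5.66%) and 6 (2.17%) in the technical pair. For each member the row with the highest count over the 3 libraries was used.

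The order of miR-181d and miR-181a rests on this choice. With the hairpin rows of every miRNA added up, the library totals also grew, to 8743314 counts in the biological replicate and 7330605 and 8393478 in the technical pair, which lowers the CPM of a miRNA with 1 hairpin at unchanged counts. miR-181a then had 541 CPM in the biological replicate, and 711 and 575 CPM in the technical pair. miR-181d, whose counts stayed the same, had 600 CPM in the biological replicate and 442 and 446 CPM in the technical pair. By that count miR-181d was above miR-181a in the biological replicate and below it in both technical libraries. Since the rows of miR-181a differ by 1 count, the added rows would hold nearly every read 2 times if both hairpins were credited with the same reads.

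The makeup of the family differed between the libraries, with the largest share of miR-181d in the biological replicate. miR-181d took 55.7% of the family's counts there (exact Clopper-Pearson 95% interval 54.7 to 56.7%), against 44.0% (42.8 to 45.1%) and 50.01% (48.9 to 51.1%) in technical replicates 1 and 2. miR-181a took 25.1% in the biological replicate (24.2 to 26.0%), against 35.4% (34.3 to 36.5%) and 32.2% (31.2 to 33.3%) in the technical pair. For both members the biological share lay outside the technical range, although the technical libraries also differed from each other beyond counting error. For miR-181d the technical libraries lay about as far from each other as technical replicate 2 lay from the biological replicate. miR-181c took 15.7% in the biological replicate, between 17.0% and 14.1% in technical replicates 1 and 2. miR-181b held a nearly constant share, at 3.55% in the biological replicate and 3.60% and 3.70% in the technical pair.

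**Figure D2:**
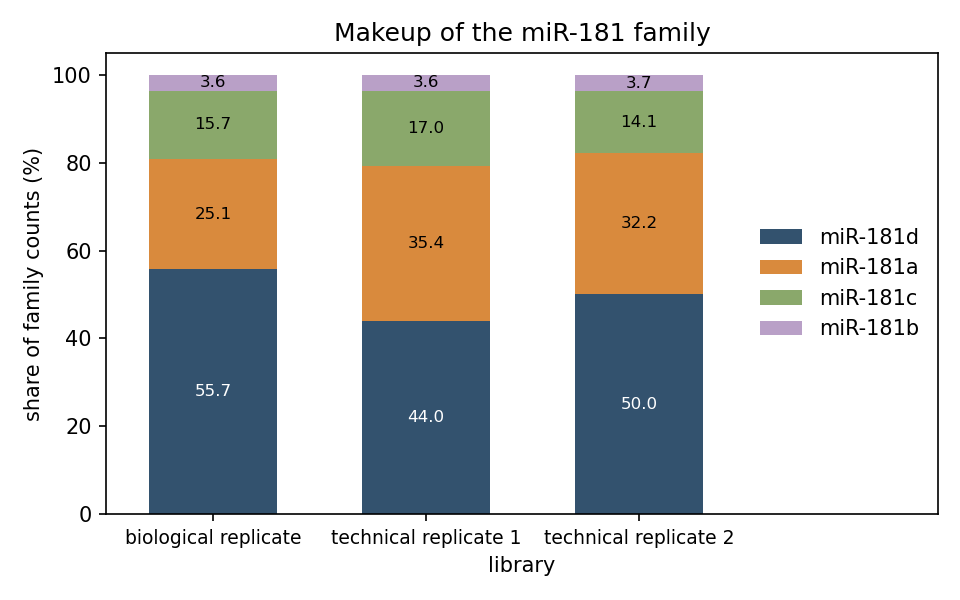
Share of the family's counts (percent, linear axis from 0) taken by each member in the biological replicate and technical replicates 1 and 2, 1 stacked bar per library. miR-181d takes 55.7% in the biological replicate, more than in either technical library, and miR-181a takes 25.1%, less than in either.

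Ratios within a library do not depend on how libraries are scaled. miR-181d counts were 2.22 times those of miR-181a in the biological replicate (95% interval 2.12 to 2.33), against 1.24 (1.18 to 1.31) and 1.55 times (1.47 to 1.63) in technical replicates 1 and 2. This ratio was higher in the biological replicate than in both technical libraries. Its size rests on the choice of hairpin rows, which the intervals do not cover. With hairpin rows added up it was 1.11 in the biological replicate and 0.62 and 0.78 in the technical pair. With 1 library against 2, an exact one-sided permutation test cannot give a p below 0.333, so none is reported. The neighbouring hairpins behaved otherwise. miR-181d counts were 3.56 times those of miR-181c in the biological replicate (3.36 to 3.77), against 2.58 (2.42 to 2.76) and 3.55 times (3.32 to 3.81) in technical replicates 1 and 2. For this pair technical replicate 1 stood apart, and the biological replicate and technical replicate 2 had overlapping intervals.

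miR-181a counts were 7.06 times those of miR-181b in the biological replicate (6.29 to 7.94), against 9.84 (8.67 to 11.2) and 8.71 times (7.69 to 9.90) in the technical pair. The biological ratio was thus the lowest, and its interval overlapped that of technical replicate 2. Because both of these miRNAs come from 2 hairpin pairs, their ratio mixes the pairs.

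miR-181c and miR-181a differed more within the technical pair than most miRNAs of similar or higher abundance. The log2 ratio of CPM in technical replicate 2 over technical replicate 1 was -0.42 for miR-181c and -0.28 for miR-181a. These were the lowest ratios of the 167 miRNAs averaging 100 CPM or more, with no other miRNA below miR-181c and only miR-181c below miR-181a. By absolute size, 1 miRNA exceeded miR-181c and 4 exceeded miR-181a, against a median absolute ratio of 0.091. miR-181d stood at 0.038, close to the median ratio of 0.036, and 133 of the other 166 miRNAs had a larger absolute ratio. miR-181b, below 100 CPM, stood at -0.11. The other miRNAs above miR-181a by absolute size, miR-296-3p at 0.44, miR-129-3p at 0.33 and miR-423-5p at 0.31, were higher in technical replicate 2, and are named after their values were seen.

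**Figure D3:**
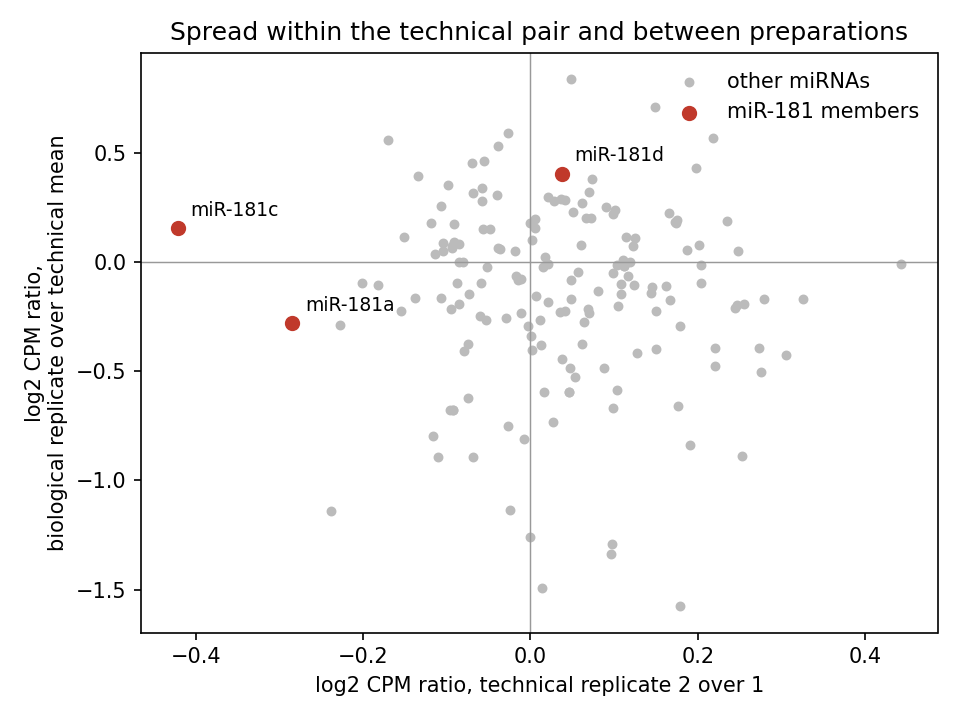
Each point is 1 of the 167 miRNAs averaging 100 CPM or more, placed by its log2 CPM ratio of technical replicate 2 over 1 (x axis) and of the biological replicate over the technical mean (y axis). miR-181c (-0.42) and miR-181a (-0.28) lie at the far left, whereas miR-181d (0.038) lies near the centre of the x axis and at 0.40 on the y axis.

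The biological replicate was then compared with the technical pair in edgeR's quasi-likelihood test, fitted on all 367 miRNAs that reached 10 counts in any library, with Benjamini-Hochberg adjustment over all of them. All 4 members passed that count filter. miR-181d and miR-181c were higher in the biological replicate, none was lower, and miR-181a and miR-181b did not pass. Over all miRNAs tested 37.9% passed at an adjusted p below 0.05, 17.7% higher and 20.2% lower. Of the members 2 of 4 passed, both higher, and 4 members are too few to tell that from these shares. The median log2 fold change of the members was 0.32, against 0.013 over all miRNAs tested. With 4 members that median is set by miR-181b (0.30), which did not pass, and miR-181c (0.34), whose call depended on the fit.

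miR-181d had a log2 fold change of 0.59 ± 0.095 (SE, edgeR adjusted p = 2.6e-08). That adjusted p rests on a spread pooled over all miRNAs, since edgeR estimated infinite prior degrees of freedom. With library totals, where the estimate was 4.30, the edgeR adjusted p was 0.024. By the scaling and test used, its log2 fold change lay between 0.40 with library totals and 0.59, and passed in each. The biological replicate exceeded technical replicate 1 by 0.42 and technical replicate 2 by 0.39 on the log2 CPM scale, and its own spread between preparations could not be measured from 1 library.

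miR-181c had a log2 fold change of 0.34 ± 0.11 (SE, edgeR adjusted p = 0.0082), but its biological CPM lay inside the technical range. As for miR-181d, that adjusted p rests on a spread pooled over all miRNAs, with infinite prior degrees of freedom. With DESeq2's size factors in edgeR the estimate was 5.04 and the SE of miR-181c was 0.19. The fit limited to means of 100 CPM or more also had infinite prior degrees of freedom. miR-181c did not pass in edgeR with library totals (0.16, adjusted p = 0.58), with DESeq2's size factors (0.33, adjusted p = 0.25), with hairpin rows added up (0.34, adjusted p = 0.13) or with the fit limited to means of 100 CPM or more (0.19, adjusted p = 0.24). It also did not pass in DESeq2 (0.32, adjusted p = 0.65), and it passed without a count filter (0.31, edgeR adjusted p = 0.024) and with each hairpin row fitted by itself (0.34, edgeR adjusted p = 0.0045). On the log2 CPM scale the biological replicate was 0.38 above technical replicate 2 and slightly below technical replicate 1 (-0.040), so the direction rests on which technical library is used.

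miR-181a had a log2 fold change of -0.10 ± 0.10 (SE, edgeR adjusted p = 0.48). It lay between -0.28 with library totals and -0.092 with hairpin rows added up or fitted separately and passed in none. miR-181b had 0.30 ± 0.15 (SE, edgeR adjusted p = 0.11), with 0.12 as its lowest value, with library totals. It passed in none of the fits either, and was not part of the fit limited to means of 100 CPM or more.

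**Figure D4:**
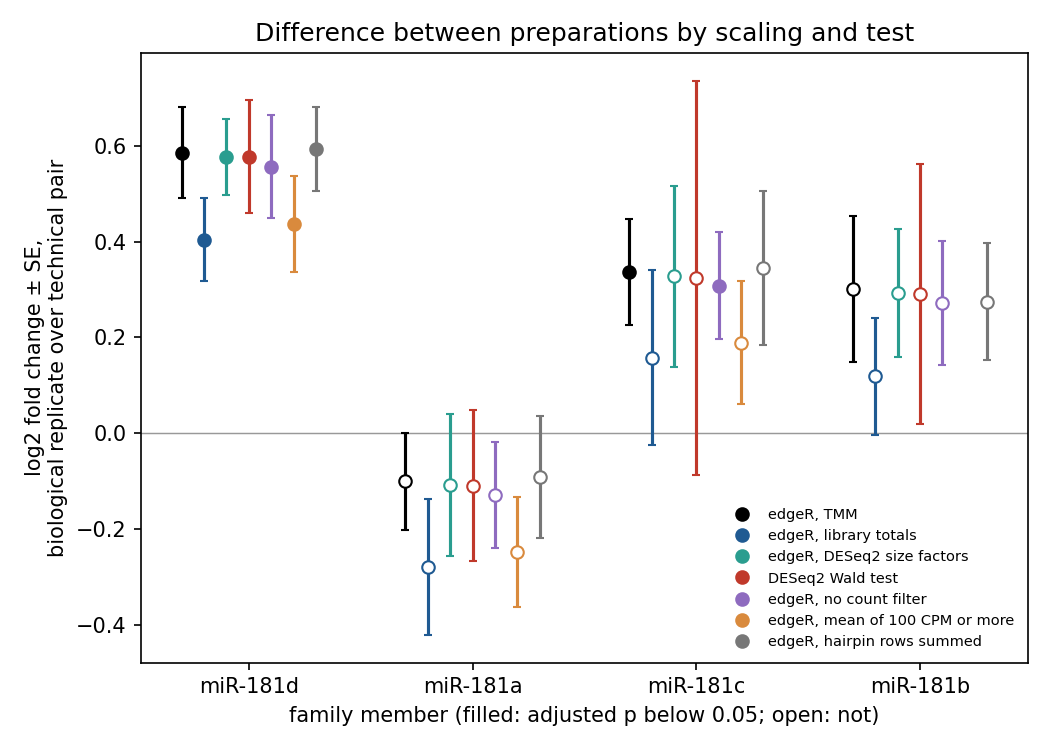
Log2 fold change ± SE of the biological replicate over the technical pair for each miR-181 member (edgeR or DESeq2, 3 libraries), with 1 colour for each scaling, filter or test; filled points have an adjusted p below 0.05. The fit with each hairpin row by itself is not drawn. Among the fits drawn, miR-181d is filled throughout (0.40 to 0.59), miR-181c is filled in 2, and miR-181a and miR-181b are open throughout.

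Limits of this test are wide. The fit has 1 residual degree of freedom, which comes from the technical pair, so the adjusted p-values speak of these 3 libraries, not of animals in general. TMM, edgeR's scaling, raised these fold changes by 0.18 on the log2 scale over scaling by library totals, which is more than the fold change of miR-181a and about as large as that of miR-181c with library totals. Among the 167 miRNAs averaging 100 CPM or more, the biological replicate lay outside the technical range in 87.4%, above it in 34.1% and below it in 53.3%. Of the 3 members in that set, miR-181d lay above, miR-181a below and miR-181c inside the range.

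The miRNAs annotated next to miR-181c and miR-181d did not all behave like miR-181d, and 3 of these 4 (miR-23a, miR-27a-3p, miR-24-3p and miR-27a-5p) were far more abundant than it. miR-23a had 8991 CPM in the biological replicate and 10759 and 10842 CPM in technical replicates 1 and 2, with a log2 fold change of -0.083 ± 0.11 (SE, edgeR adjusted p = 0.62). miR-27a-3p had 3337 CPM in the biological replicate and 3713 and 3732 CPM in the technical pair, with a log2 fold change of 0.024 ± 0.10 (SE, edgeR adjusted p = 0.88). Neither passed the test, and within the technical pair each differed far less than miR-181c did. miR-24-3p had 6333 CPM in the biological replicate and 6130 and 5753 CPM in the technical pair, and was higher by 0.27 ± 0.10 (SE, edgeR adjusted p = 0.024). The table lists miR-24-3p also on a second hairpin, mir-24-1, which lies elsewhere, with nearly the same counts. The scarce miR-27a-5p, with 19.2 CPM in the biological replicate and 9.37 and 12.0 CPM in the technical pair, was higher too, with a log2 fold change of 1.02 ± 0.22 (SE, edgeR adjusted p = 2.7e-05). The row miR-24 belongs to mir-24-1 and was higher by 0.56 ± 0.14 on the log2 scale (SE, edgeR adjusted p = 0.00053). The differences between these fold changes and that of miR-181d were not tested.

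The miRNAs whose profile over the 3 libraries was most like that of a member were taken by the distance between centred log2(CPM + 1) values, over the 167 miRNAs averaging 100 CPM or more. For miR-181d these were miR-1271, miR-151-3p and miR-95, at distances of 0.031, 0.073 and 0.081. miR-1271 had 443 CPM in the biological replicate and 331 and 349 CPM in technical replicates 1 and 2. For miR-181a they were miR-153, miR-1468 and miR-758, at distances of 0.042, 0.10 and 0.14, and miR-153 had 114 CPM in the biological replicate and 151 and 129 CPM in the technical pair. miR-181c had no close match, since its nearest, miR-32, miR-484 and miR-375, lay at distances of 0.20, 0.21 and 0.23. With 3 libraries many profiles are alike, and the distances describe these libraries.

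miR-181 members are also known from lymphocytes, endothelium and brain, so markers of these were read in the same fit. The 6 leukocyte miRNAs (miR-142-3p, miR-142-5p, miR-146a, miR-150, miR-155 and miR-223) summed to 123 CPM in the biological replicate and 281 and 280 CPM in the technical pair. Of the 5 tested, 2 were lower (miR-146a and miR-142-5p) and none higher, against 20.2% lower and 17.7% higher over all miRNAs tested. The median log2 fold change of these 5 was -0.50. miR-146a held most of the sum, with 72.1 CPM in the biological replicate and 202 and 204 CPM in the technical pair. miR-142-3p, miR-150 and miR-155 did not pass. miR-223 had 7 counts in the biological replicate and 7 and 6 in the technical pair. Both endothelial rows of miR-126 were lower, against that background of 20.2%, and summed to 1130 CPM in the biological replicate and 1820 and 1888 CPM in the technical pair. Within the technical pair the leukocyte sums were nearly equal. Any link between these markers and the miR-181 members was not tested. Of 11 brain and neuronal rows, 5 were higher (miR-128, miR-137, miR-218, miR-9-3p and miR-9-5p) and 1 lower (miR-132), against the same 17.7% and 20.2%. The rows that did not pass were miR-124a and miR-124b, with identical counts, miR-129 and miR-129-5p, also identical, and miR-129-3p. miR-128, the most abundant, had 3147 CPM in the biological replicate and 2205 and 2147 CPM in the technical pair. miR-132 had 1118 CPM in the biological replicate and 2643 and 2829 CPM in the technical pair. With identical rows counted once, the brain and neuronal rows summed to 9583 CPM in the biological replicate and 9647 and 10220 CPM in the technical pair.

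The miRNAs miR-375 and miR-7, known for high levels in endocrine cells, summed to 473000 CPM in the biological replicate and 440620 and 428375 CPM in the technical pair. Most of that was miR-375, with 416586 CPM in the biological replicate and 381396 and 358079 CPM in the technical pair. miR-7 went the other way, with 56414 CPM in the biological replicate and 59224 and 70296 CPM in the technical pair. Neither passed the test. The erythrocyte miRNAs miR-144, miR-451 and miR-486 summed to 1097 CPM in the biological replicate and 898 and 837 CPM in the technical pair. Nearly all of that was miR-486, with 1080 CPM in the biological replicate and 873 and 816 CPM in the technical pair. Of the 2 tested, 1 was higher (miR-486) and none lower, against 17.7% higher and 20.2% lower over all miRNAs tested. miR-451 did not pass, and its CPM went the other way, at 16.8 in the biological replicate and 23.6 and 20.2 in the technical pair. miR-144, not tested, had 4 counts in the biological replicate and 5 and 6 in the technical pair. The part of other cell types in the levels of miR-181 members was not tested.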

How the data were processed

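Total RNA of purified vesicles was made into small RNA libraries with the NEBNext multiplex kit, per the labels' protocols. The authors deposited raw counts per mature miRNA and hairpin, CPM over all rows of that table, and log2 values for part of the rows; the genome build UMD3.1 and the tool edgeR come from the submitters' processing notes. Aligner, counter and strand use: not given in the sources used here. No molecular identifiers appear in the labels, so intervals cover counting error only.

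Each mature miRNA was represented by its hairpin row with the most counts, and CPM were recomputed on those totals. A count of 0 allows up to 3 counts, or 0.447 to 0.541 CPM. edgeR 4.0.16 (R 4.3.3; TMM, quasi-likelihood fit and test) was run on the 367 miRNAs that reached 10 counts in any library, adjusted by Benjamini-Hochberg at 0.05, after the script was tested on simulated data. Standard errors were derived from the fold change and the F statistic. Intervals were computed with scipy 1.17.1. Alternatives were library totals, DESeq2's size factors, DESeq2 1.42.0, no count filter, a mean of at least 100 CPM, added or separate hairpin rows, each library left out, and the authors' CPM and log2 values. Named miRNAs were all family rows, the 3 most alike for each member of at least 100 CPM, the miRNAs beside miR-181c and miR-181d, and the marker lists. The family and the lists were chosen with earlier results of these data known. Only 1 library was labelled a biological replicate, and nothing says that the replicates came from separate animals. The p-values therefore set its difference against a spread that comes from the technical pair, not from animals.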

Additional observations from a re-analysis of the deposited data

How the results depend on the processing

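miR-181d kept its direction and its call in each fit run. The call of miR-181c was lost with library totals (log2 fold change 0.16), DESeq2's size factors (0.33), DESeq2 (0.32), miRNAs of at least 100 CPM (0.19) and added hairpin rows (0.34), and its CPM ratio was 0.38 without technical replicate 1 and -0.040 without technical replicate 2; the cause was not tested. miR-181a and miR-181b did not pass in any. The number of miRNAs called over the table was 139, and became 86 in DESeq2, which gave an adjusted p for 288 of the 367, and 70 with a mean of at least 100 CPM, where fewer miRNAs were fitted; with library totals the split was 24 higher and 86 lower, against 65 and 74. With added hairpin rows the mean family shares became 44.2% for miR-181a, 5.26% for miR-181b, 11.8% for miR-181c and 38.8% for miR-181d, against 29.4%, 3.60%, 15.6% and 51.3%. With the authors' CPM, whose total counts every row, the family sum was 1013 CPM. With each library left out, the mean share of miR-181c lay between 14.9% and 16.3%. Leaving out a technical library leaves no residual degree of freedom, so those values carry no test. No paired analysis was possible because the labels pair no biological library with a technical one. Depth limits miR-181b most, at 265 to 335 counts a library.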
